A study of Homo sapiens with 12 samples.

Results

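The lactate effect averaged over SW480 and DLD1 was measured by RNA sequencing in all 12 of the 12 libraries of the study. SW480 and DLD1 are established human colorectal cancer cell lines, and the labels name no engineered change in either. Each line had 3 libraries without added lactate, called controls below, and 3 libraries from lactate-treated cultures, which the study describes as biological replicates. Neither the concentration of lactate, the duration of treatment nor a control for acidity or osmolality is stated in the labels. The 6 lactate libraries were compared with the 6 controls in 1 model that also held a term for the line, over 12384 genes with a mean of at least 1 CPM, the read count scaled to the library total, in each line. This asks which transcripts moved with lactate in common across both lines, with no term for a difference in response.

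Lactate is the end product of glycolysis. Cells export and import it with protons through monocarboxylate transporters, and lactate dehydrogenase interconverts it with pyruvate, so that added lactate changes the redox balance of the cytosol. Lactate is also sensed by a surface receptor, HCAR1, and is known to stabilise hypoxia-inducible factor (HIF) in some cells through the prolyl hydroxylases. In colorectal tumours it accumulates in poorly perfused regions.

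Libraries held 12302311 to 22662063 counts, and tested genes took 95.1% to 98.5% of them. DLD1 controls 2 and 3 stood apart from their group, in opposite directions. Measured per gene against the rest of the group on the log2 scale, their deviations had a standard deviation (SD) of 0.555 and 0.449, where no other library exceeded 0.271. The deviations followed transcript GC content, with a Spearman rho over genes of -0.80 in control 2 and 0.84 in control 3. Each result below was therefore also computed with the GC trend removed and without both libraries. Without both, DLD1 control 1 is the only control of that line, so the DLD1 side of that fit rests on it. The libraries labelled SW480 lacked several defining epithelial transcripts. EPCAM, the epithelial adhesion molecule, was at 0.356 to 1.14 CPM there against 656 to 716 CPM in the libraries labelled DLD1, and CDX2, the intestinal master regulator, was at most 0.289 CPM against 94.8 to 183 CPM. The fibroblast matrix genes DCN and COL3A1 reached 57.0 to 87.6 CPM and 123 to 154 CPM in the SW480-labelled libraries, although keratin 8 (KRT8) was at 826 to 1409.6 CPM. The name SW480 below means this label, and the effect in DLD1 is given beside that in SW480 for the genes on which a result turns.

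Over both lines, 1603 of 12384 genes (12.9%) changed at a Benjamini-Hochberg adjusted p below 0.05 in edgeR's quasi-likelihood test, which is the rule for "called", "rose" and "fell" throughout. Of these, 867 rose (7.00%) and 736 fell (5.94%). These shares over all tested genes are the background for the counts in each gene list below, as far as they come from this fit. Counts from other fits have another background. With the GC trend removed 1438 of all tested genes rose and 1855 fell. Without SW480 control 1 the numbers were 357 and 264, and without DLD1 control 2 they were 1486 and 1345. Most changes were small: the median log2 fold change was 0.50 among genes that rose and -0.36 among genes that fell, against -0.01 over all genes tested. A change of at least 2-fold was reached by 44 genes that rose and by 3 that fell. Of the genes that rose, 34 had a control mean under 1 CPM in some line, as did 199 of all tested genes. There they passed the expression filter only through lactate libraries, so they had to differ and their p-values are a description. All p-values measure the spread between these libraries. For the average, whose model has no term for a difference in response, that spread also holds any difference between the lines. The same is true of its standard error. Leaving out 1 library gave 621 calls for SW480 control 1, 1044 for control 2, 706 for control 3, 701 for lactate 1 and 669 for lactate 2. For DLD1 the numbers were 973 with control 1 left out, 2831 with control 2, 2682 with control 3 and 831 with lactate 1 left out. The split between directions moved with the GC trend: with it removed, 1438 genes rose and 1855 fell, so that the share of calls that were rises went from 54.1% to 43.7%. Of the 1603 genes, 1362 were called in the same direction with the trend removed, 1578 without DLD1 controls 2 and 3, and 581 in every fit that left out a single library. Genes named below as called were called in all 12 fits that left out 1 library, and with the GC trend removed, unless stated otherwise. A value written as a ± b is a log2 fold change of lactate against control with its standard error (SE), averaged over both lines unless a line is named.

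The largest rise was that of HSPA6 on chromosome 1 (161524540 to 161526894, GRCh38.p14), the strictly stress-inducible member of the HSP70 chaperone family. HSPA6 was at 0.450, 0.325 and 0.405 CPM in SW480 controls and at 35.7, 36.6 and 43.1 CPM with lactate. The DLD1 levels were 0.695, 0.335 and 0.781 CPM in controls and 57.5, 39.8 and 29.9 CPM with lactate. Every control of both lines was below 1 CPM and every lactate library was above 29 CPM, so the groups lay far apart. The average log2 fold change was 6.28 ± 0.22, adjusted p = 5.58e-10, with 6.60 in SW480 and 6.05 in DLD1. The gene passed the expression filter only through its lactate libraries, so it had to differ and its p-value is a description. Its near copy HSPA7 held 0 to 12 counts in each library, and the near-identical HSPA1A and HSPA1B held 0 to 2 and 5 to 58 counts and were not tested.

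The 250 bases before the start of HSPA6 are shown because they hold 3 adjoining heat shock units (TTCNNGAANNTTC or its reverse GAANNTTCNNGAA, capitals), the pattern bound by heat shock factor 1. The sequence is from RefSeq on GRCh38.p14, chr1:161524290-161524539, plus strand, 5′ to 3′, and ends at the base before the start.
HSPA6: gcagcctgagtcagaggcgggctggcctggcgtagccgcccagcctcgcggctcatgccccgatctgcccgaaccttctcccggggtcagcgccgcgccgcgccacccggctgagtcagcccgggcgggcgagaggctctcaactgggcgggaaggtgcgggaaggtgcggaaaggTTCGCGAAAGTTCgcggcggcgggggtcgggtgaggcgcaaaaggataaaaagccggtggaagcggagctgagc
The motif begins 74 bases before the start. Searched on both strands from 250 bases before to 50 after the start, it occurs in 0.494% of 27305 RefSeq promoters and in 0.338% of the 9455 promoters of tested genes. Among the called heat shock genes with a promoter entry it was found in 3 of 9, of which HSPA6 rose and HSPA8 and DNAJA1 fell. HSPA8 was not called without SW480 control 1 or DLD1 lactate 1 (adjusted p of at most 0.0594). A match is a description of the letters only.

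The heat shock list moved in both directions. Of 18 tested members 2 rose and 8 fell, with a median log2 fold change of -0.22. Over all tested genes 7.00% rose and 5.94% fell. The other member that rose was CRYAB, a small heat shock protein that holds unfolded proteins in solution. CRYAB was at 0.450, 0.975 and 0.752 CPM in SW480 controls against 2.87, 3.67 and 2.85 with lactate, and at 0.0496, 0.0670 and 0.0521 CPM in DLD1 controls against 4.84, 3.40 and 1.68 with lactate. Each DLD1 control held 1 CRYAB count. The summed counts were 3 and 184, a ratio of 56.8 with a 95% interval of 19.1 to 278 for counting error only. The average was 3.21 ± 0.46, adjusted p = 0.00249. Like HSPA6, CRYAB passed the expression filter only through its lactate libraries, so the 2 rises of this list had to differ and are a description. Several other chaperones were lower with lactate. HSPD1, the mitochondrial chaperonin, was at 837, 699.7 and 817 CPM in SW480 controls and 492, 494 and 506 with lactate. DLD1 had 1095, 1313 and 911 CPM in controls and 804, 883 and 855 CPM with lactate, and in neither line did the groups overlap. HSPD1 fell by an average of 0.52 ± 0.09 on the log2 scale, adjusted p = 0.00555. HSP90AA1, the inducible cytosolic HSP90, changed by -0.45 ± 0.09, adjusted p = 0.0078. The count of falls in this list was 3 without SW480 control 1 or DLD1 lactate 1, and 4 without SW480 lactate 1 or lactate 2. It was 5 without SW480 control 3, DLD1 control 1, DLD1 lactate 2 or DLD1 lactate 3. In all 12 such fits 3 falls held. Both rises held too, which follows in part from the filter and adds no support.

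**Figure D1:**
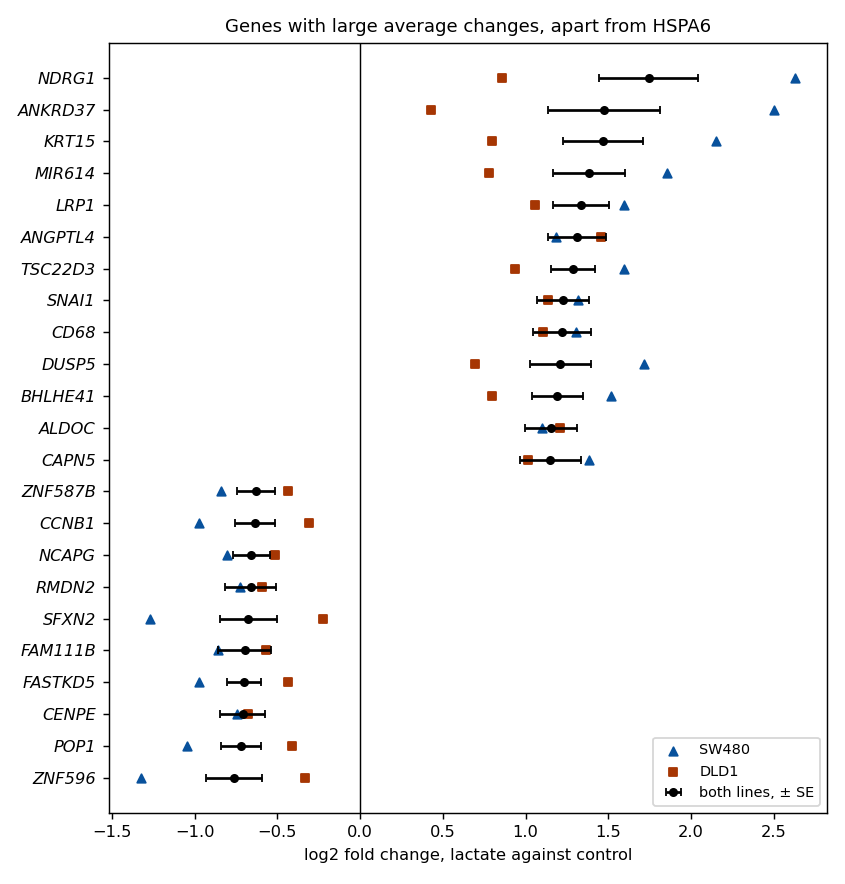
Log2 fold change (lactate against control) of genes with the largest average changes, apart from HSPA6, whose 6.28 would set the scale. Circles with bars are the average over both lines ± SE, triangles the effect in SW480 and squares that in DLD1. The 2 lines lie on the same side of 0 for every gene plotted, which the choice of these genes required.

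The plot holds genes whose higher group averaged 5 CPM or more in both lines, with no overlap between lactate and control libraries in either. NDRG1, a hypoxia-responsive differentiation gene, went from 128, 251 and 163 CPM to 995, 1241 and 1045 CPM in SW480. In DLD1 it went from 195, 137 and 246 CPM to 385, 362 and 314 CPM. Its rise was 1.74 ± 0.30 on average, with 2.63 in SW480 and 0.86 in DLD1. CYP1A1, the xenobiotic oxidase induced by the aryl hydrocarbon receptor, rose from low levels by 2.12 ± 0.20, adjusted p = 0.000213, and passed the expression filter in DLD1 only through its lactate libraries. LRP1, a large endocytic receptor with many ligands, was at 52.2, 83.5 and 79.9 CPM in SW480 controls and 249, 211 and 176 CPM with lactate, and at 20.7, 21.1 and 33.8 against 62.7, 47.1 and 50.2 CPM in DLD1, a rise of 1.33 ± 0.17 on average. TSC22D3, the glucocorticoid-induced leucine zipper that also answers osmotic stress, rose by 1.28 ± 0.13, adjusted p = 0.000392. CD68, a lysosomal glycoprotein used as a macrophage marker, rose by 1.22 ± 0.17, adjusted p = 0.00217. The 7 leukocyte markers that include CD68 summed to 37.3 to 58.1 CPM in SW480 controls and 92.1 to 112 CPM with lactate, and to 4.35 to 9.95 CPM and 11.6 to 14.7 CPM in DLD1. In SW480 most of the sum was CD68, at 30.8 to 50.2 CPM in controls and 85.6 to 104 CPM with lactate. ITGAM was lower with lactate there, at 1.93, 2.28 and 1.68 CPM against 0.749, 1.45 and 1.21 CPM. The CD14 groups overlapped in both lines. PTPRC, which defines leukocytes, was at 0 in all DLD1 libraries and at most 0.258 CPM in SW480. BHLHE41, a clock-related repressor, rose by 1.19 ± 0.16, and CAPN5, a calcium-dependent protease, by 1.15 ± 0.18. MIR614, whose hairpin at 12915829 to 12915918 on chromosome 12 lies inside GPRC5A (12891562 to 12917937), rose by 1.38 ± 0.22 where GPRC5A rose by 0.74 ± 0.10. Reads of the 2 genes cannot be told apart from these counts.

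HIF targets outside glycolysis rose together. Of 28 tested members 20 rose and 0 fell, with a median log2 fold change of 0.54 against -0.01 over all genes, of which 7.00% rose. With the GC trend removed 24 rose. The count was 15 to 23 over the fits that left out a library, and 15 members were called in all of them. ANGPTL4, a secreted inhibitor of lipoprotein lipase (chromosome 19, 8364155 to 8374370), was at 986, 1491 and 1135 CPM in SW480 controls and 2929, 2799 and 2313 with lactate. The same gene in DLD1 was at 15.7, 8.57 and 21.1 CPM in controls and 51.1, 40.2 and 35.8 CPM with lactate, and the lactate libraries were above all controls in both lines. The average was 1.31 ± 0.18, adjusted p = 0.00197, close to the effects of 1.19 in SW480 and 1.45 in DLD1. VEGFA, the angiogenic growth factor (chromosome 6, 43770211 to 43786487), was at 161, 221 and 193 CPM in SW480 controls against 400.2, 448 and 371 with lactate, and at 158, 144 and 179 against 240.1, 219 and 214 CPM in DLD1. Its rise was 0.79 ± 0.12, adjusted p = 0.00316. EGLN3, a prolyl hydroxylase that marks HIF for degradation and is itself a HIF target, rose by 0.66 ± 0.09, MXI1, a MYC antagonist, by 0.66 ± 0.10, and CA9, the surface carbonic anhydrase, by 0.87 ± 0.17. Chosen after their values were seen, the peptide hormone gene ADM rose by 0.87 ± 0.13, DDIT4, an inhibitor of mTORC1, by 0.76 ± 0.12, and CITED2, which competes with HIF for p300, by 0.64 ± 0.10. ANKRD37 rose by 1.48 ± 0.34, adjusted p = 0.0144, and lost its call only without SW480 control 3 (adjusted p = 0.0527). HIF1A itself, whose protein is the regulated step, had a log2 fold change of 0.04 ± 0.10, adjusted p = 0.85 (0.18 and 0.0477 with the GC trend removed).

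Glucose transporters, hexokinases, an aldolase and 2 enolases rose. In the glycolysis list 7 of 18 tested members rose and 0 fell, with a median of 0.31. The count was 11 without DLD1 control 3 and 9 with the GC trend removed, and 6 members held in every fit with a library left out. SLC2A1, the basal glucose transporter GLUT1 (chromosome 1, 42925353 to 42958868), was at 224, 282 and 261 CPM in SW480 controls and 449, 470.0 and 418 CPM with lactate. In DLD1 it was at 399, 309.7 and 538 CPM in controls and 819, 678 and 714 CPM with lactate. The groups did not overlap, and the effects of 0.83 in SW480 and 0.81 in DLD1 were nearly equal (average 0.82 ± 0.11, adjusted p = 0.00197). SLC2A3 (GLUT3) rose by 0.91 ± 0.15. Its near copy SLC2A14 held at most 14 counts in each library. HK1 and HK2, which trap glucose as glucose 6-phosphate, rose by 0.53 ± 0.08 and 0.86 ± 0.16 on average, HK2 with 1.36 in SW480 and 0.36 in DLD1. Enolases act in the lower part of the pathway. Added after their values were seen, ENO2, the neuronal form, rose by 0.87 ± 0.16, adjusted p = 0.00651, and ENO3, the muscle form, by 0.50 ± 0.13, adjusted p = 0.0233, a call lost without SW480 control 1, 2 or 3 or lactate 1 or 2 (adjusted p of at most 0.0722). Added in the same way, the lower enzymes GAPDH at 0.14 ± 0.11, ENO1 at 0.06 ± 0.09 and PKM at 0.09 ± 0.10 did not pass the test, with adjusted p = 0.426, 0.72 and 0.575. ALDOC, the brain-type aldolase, had the largest rise of the list. It was at 25.8, 39.6 and 30.1 CPM in SW480 controls against 69.6, 72.2 and 57.7 with lactate, and at 24.3, 13.7 and 30.05 against 57.3, 53.5 and 49.2 CPM in DLD1. Its average was 1.15 ± 0.16, adjusted p = 0.00197.

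The ALDOC promoter is shown as the glycolytic promoter with the largest change. Capitals mark the HIF core ACGTG or GCGTG on either strand, as well as the E-box CACGTG, which contains ACGTG. It is RefSeq sequence on GRCh38.p14, chr17:28576896-28577145, minus strand, 5′ to 3′, up to the base before the start.
ALDOC: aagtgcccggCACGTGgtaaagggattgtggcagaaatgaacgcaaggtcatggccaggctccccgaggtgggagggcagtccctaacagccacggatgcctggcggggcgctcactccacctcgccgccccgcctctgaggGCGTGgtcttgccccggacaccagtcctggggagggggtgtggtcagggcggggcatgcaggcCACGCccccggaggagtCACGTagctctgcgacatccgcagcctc
The core occurred in 12 of 15 called HIF targets with a promoter entry and in 5 of 6 called glycolysis genes. It is short and common: 48.4% of all promoters and 64.7% of those of tested genes hold it. Among all genes that rose the share was 59.9%, and among those that fell 71.0%.

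TXNIP, the arrestin-domain protein that limits glucose uptake and is induced by sugar phosphates through MondoA, was higher with lactate in both lines. TXNIP (chromosome 1, 145992435 to 145996579) was at 539.5, 803 and 608 CPM in SW480 controls and 1264, 1423 and 1007 CPM with lactate. The DLD1 levels were 237, 215 and 199 CPM in controls and 399, 448 and 383 CPM with lactate, with no overlap in either line. The average was 0.93 ± 0.11, adjusted p = 0.00134, with 0.95 in SW480 and 0.90 in DLD1. ARRDC4, its closest relative under the same control, changed by 0.35 ± 0.10, adjusted p = 0.037. Its call was lost in the fits without SW480 control 1, control 3, lactate 2 or lactate 3 and without DLD1 control 1, lactate 1, lactate 2 or lactate 3, with adjusted p of at most 0.0826. Of 8 tested arrestin-domain genes and MondoA factors these 2 rose and 0 fell, where 7.00% of all tested genes rose. Without DLD1 control 3 the rises were 4. The TXNIP promoter is shown for its pair of carbohydrate response boxes, searched as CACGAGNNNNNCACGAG (capitals). That exact spelling was found in 2 of 27305 promoters, and paired boxes with other letters were not searched. TXNIP has 2 starts in the table, and the more upstream was used: RefSeq on GRCh38.p14, chr1:145996580-145996829, minus strand, 5′ to 3′.
TXNIP: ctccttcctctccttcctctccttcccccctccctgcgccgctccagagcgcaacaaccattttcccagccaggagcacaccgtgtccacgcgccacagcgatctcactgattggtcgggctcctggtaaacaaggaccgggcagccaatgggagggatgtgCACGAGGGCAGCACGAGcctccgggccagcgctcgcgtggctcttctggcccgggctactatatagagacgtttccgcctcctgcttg

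Genes that handle lactate itself were called in both directions. Of 19 tested genes for lactate and pyruvate handling, 2 rose and 2 fell, with a median of -0.0044. The background was 7.00% of all tested genes that rose and 5.94% that fell. With the GC trend removed 6 rose and 2 fell, and without DLD1 controls 2 and 3 the numbers were 4 and 4. The 2 rises were lost without SW480 control 1, control 3 or lactate 2, 1 remained without SW480 lactate 1, and there were 4 without DLD1 control 2. LDHA, the subunit favouring lactate production, was at 3374, 3609 and 3535 CPM in SW480 controls and 3794, 3863 and 4005 CPM with lactate. DLD1 had 2739, 2545 and 2461 CPM in controls and 2651, 2900.1 and 2639 CPM with lactate, where the groups overlapped. Its average of 0.12 ± 0.06 did not pass (adjusted p = 0.238), but did with the GC trend removed (adjusted p = 0.0117). LDHB, the subunit favouring lactate oxidation, fell by an average of 0.30 ± 0.08 on the log2 scale, adjusted p = 0.0213. That p was 0.0641 with SW480 control 1 left out, 0.0527 with control 3, 0.0536 with lactate 1 and 0.0618 with lactate 2, and 0.0539 with DLD1 lactate 1 left out. The exporter SLC16A3 (MCT4) had 0.50 ± 0.17, adjusted p = 0.0674, and passed with the GC trend removed (adjusted p = 0.0213) and without both DLD1 controls (0.00518). The transporter SLC16A1 (MCT1) had -0.44 ± 0.29, adjusted p = 0.329. The receptor gene HCAR1 held at most 3 counts in any library and was not tested.

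**Figure D2:**
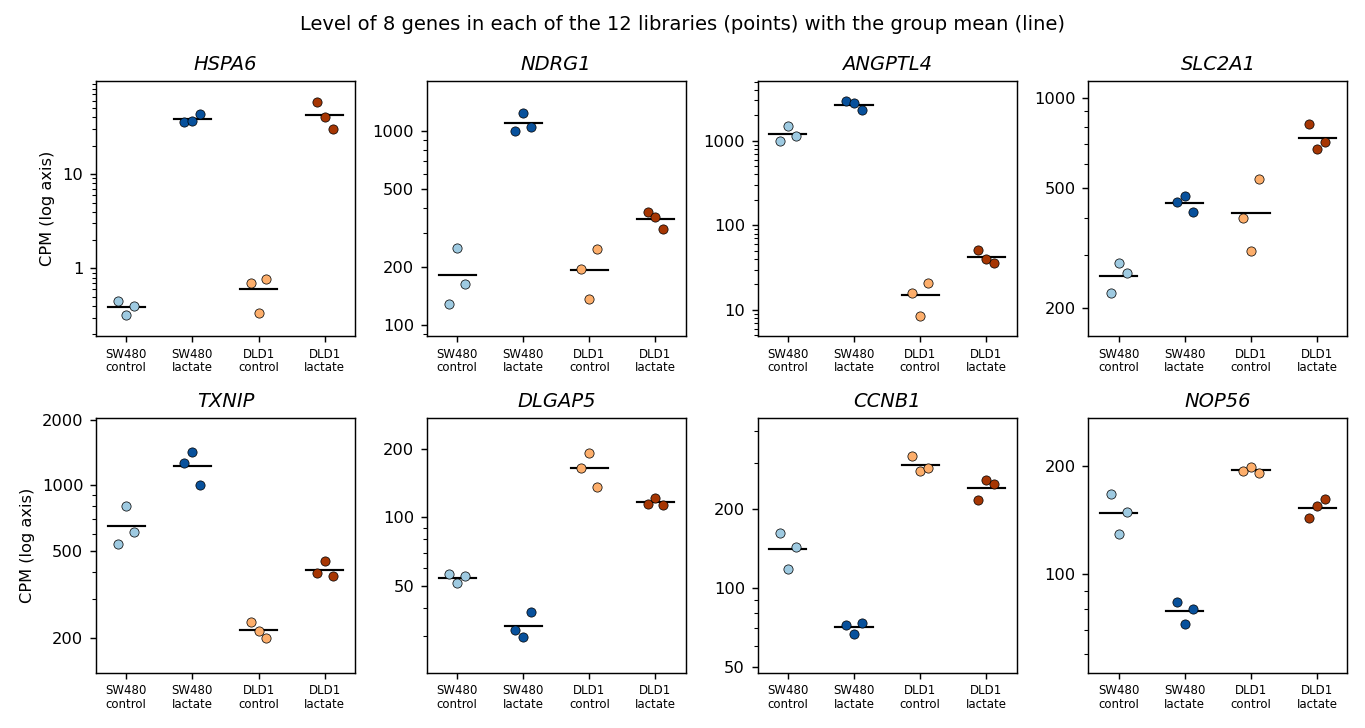
Level of 8 genes in each of the 12 libraries, in CPM on a log axis. Points are libraries and lines are group means, for controls and lactate of SW480 and DLD1. HSPA6, NDRG1, ANGPTL4, SLC2A1 and TXNIP are higher in every lactate library than in every control of the same line, and DLGAP5, CCNB1 and NOP56 are lower.

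Immediate early genes, which growth factors and stress switch on without new protein synthesis, formed another group that rose. Of 30 tested members 21 rose and 0 fell, with a median of 0.55, and 24 rose with the GC trend removed. The count was 12 without SW480 control 1 and 13 without SW480 control 3 or lactate 1, and 12 members held in every such fit. CYR61 (CCN1), a matrix-associated signalling protein, was at 43.7, 54.9 and 47.3 CPM in SW480 controls and 103, 132 and 133 CPM with lactate. For DLD1 the levels were 15.1, 14.7 and 14.2 CPM in controls and 27.9, 23.8 and 22.6 CPM with lactate, without overlap. Its average was 1.07 ± 0.12, adjusted p = 0.00104. EGR1, a zinc finger factor induced by ERK signalling, rose by 0.70 ± 0.10, adjusted p = 0.00212. The ERK phosphatases DUSP5 and DUSP6, which are targets and brakes of that pathway, rose by 1.21 ± 0.19 and 0.54 ± 0.08. Among AP-1 subunits, chosen after their values were seen, JUN rose by 0.87 ± 0.14 (0.63 in SW480 and 1.11 in DLD1), and FOSL1 by 0.93 ± 0.17 (1.37 and 0.44). MCL1, an anti-apoptotic gene, had an average of 0.80 ± 0.24 (adjusted p = 0.0459) from effects of 1.60 in SW480 and -0.01 in DLD1. It was not called without any single SW480 library, DLD1 control 1 or DLD1 lactate 1, with adjusted p of at most 0.127.

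Of 9 tested EGF family ligands and receptors, 3 rose and 0 fell. Rises numbered 5 with the GC trend removed and 6 without DLD1 control 2 or without both controls, where 1 fell. The 3 were HBEGF, a membrane-bound ligand of the EGF receptor, at 0.61 ± 0.12, the receptor ERBB3 at 0.48 ± 0.09, and the feedback inhibitor ERRFI1 at 0.71 ± 0.12. Among TGF-beta and YAP targets 7 of 19 rose and 0 fell, with 4 without SW480 control 1, lactate 1 or lactate 2. CTGF (CCN2), a connective tissue growth factor, rose by 1.12 ± 0.15, adjusted p = 0.00197, and F3, tissue factor, by 0.52 ± 0.11. Of 15 members of the EMT list 5 were tested and 3 rose. SNAI1, a repressor of CDH1, rose by 1.23 ± 0.16, adjusted p = 0.00143, PLAUR, the urokinase receptor, by 0.69 ± 0.14, and its ligand PLAU by 0.33 ± 0.10 (adjusted p = 0.0493). CDH1, taken after its values were seen, was not lower in DLD1, at 637, 736 and 712 CPM in controls and 911, 775 and 825 CPM with lactate. In SW480 it was at 1.19 to 1.54 CPM with overlapping groups. PLAU kept its call only without DLD1 control 2 or control 3, with adjusted p of at most 0.127 in the other fits. Of 24 tested keratin, junction and adhesion genes 9 rose and 0 fell, 8 of them in every such fit, and 1 fell with the GC trend removed or without DLD1 controls 2 and 3. KRT15, a basal keratin, was at 1.99, 3.90 and 2.26 CPM in SW480 controls and 9.42, 12.8 and 12.7 CPM with lactate. The same gene in DLD1 was at 3.37, 2.61 and 3.02 CPM in controls and 5.45, 5.11 and 5.38 CPM with lactate, a change of 1.47 ± 0.24 on average, adjusted p = 0.00365. KRT19 rose by 0.75 ± 0.15, KRT7 by 0.58 ± 0.12, and the laminin chain LAMB3 by 0.58 ± 0.12. KRT8 and KRT18, chosen after their values were seen, were lower with lactate in SW480. KRT8 was at 1409.6, 1194 and 1344 CPM in SW480 controls against 992, 906 and 826 with lactate. KRT18 was at 795, 658 and 762 CPM against 514, 477 and 433 there. In DLD1 lactate and control libraries overlapped for both. The 4 tested epithelium markers had a median of -0.33 in SW480 and 0.27 in DLD1. COL1A1 of the fibroblast list rose by 0.93 ± 0.15, though in DLD1 it was at 1.74 to 2.68 CPM with overlapping groups. COL3A1 of the same list was lower without overlap in both lines. It was at 154, 133 and 140 CPM in SW480 controls and 126, 123 and 131 with lactate. DCN, not tested, was at 79.5, 87.6 and 76.6 CPM in SW480 controls and 74.6, 64.6 and 57.0 with lactate. The summed fibroblast markers stood at 248 to 262 CPM in SW480 controls and 244 to 258 CPM with lactate.

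Genes of mitosis fell as a group. Of 37 tested G2/M genes 0 rose and 29 fell, with a median of -0.38, where 5.94% of all genes fell. With the GC trend removed 34 fell, and 35 without DLD1 controls 2 and 3. The count was 18 without SW480 control 1, control 3 or lactate 2 and 19 without SW480 lactate 1, and 18 members held in every fit with a library left out. CCNB1, cyclin B1 of the mitotic kinase (chromosome 5, 69167150 to 69178245), was at 162, 118 and 144 CPM in SW480 controls and 71.9, 66.7 and 73.4 CPM with lactate. In DLD1 it was at 319, 280.2 and 288 CPM in controls and 218, 259 and 249.6 CPM with lactate. The lactate libraries were below all controls of their line, by a wide margin in SW480 and a narrower one in DLD1. CCNB1 fell by an average of 0.64 ± 0.12 on the log2 scale, adjusted p = 0.00676, with -0.97 in SW480 and -0.31 in DLD1. DLGAP5, a spindle assembly factor (chromosome 14, 55148135 to 55191585), was at 56.2, 51.2 and 55.1 CPM in SW480 controls and 31.8, 29.6 and 38.2 with lactate, and at 165, 193 and 136 against 115, 122 and 114 CPM in DLD1. The average was -0.60 ± 0.09, adjusted p = 0.00265, with -0.68 in SW480 and -0.52 in DLD1. The kinetochore motor CENPE had -0.71 ± 0.14, the cyclin gene CCNA2 -0.48 ± 0.08, the spindle kinase AURKA -0.45 ± 0.08, and CDK1 -0.45 ± 0.08. The condensin subunit NCAPG, outside the list, had -0.66 ± 0.11. PLK1, a mitotic kinase taken after its values were seen, did not pass the test at -0.50 ± 0.18, adjusted p = 0.0903 (0.0153 with the GC trend removed), with -1.06 in SW480 and 0.02 in DLD1. In bulk RNA, fewer cells in mitosis and less RNA per cell cannot be told apart, and each level is relative to the library total.

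The DLGAP5 promoter is shown because its elements recur in the group. Capitals mark the cell cycle homology region TTTGAA, bound by the DREAM and MuvB complexes, and the CCAAT box, each on either strand. It is RefSeq sequence on GRCh38.p14, chr14:55191586-55191835, minus strand, 5′ to 3′, up to the base before the start.
DLGAP5: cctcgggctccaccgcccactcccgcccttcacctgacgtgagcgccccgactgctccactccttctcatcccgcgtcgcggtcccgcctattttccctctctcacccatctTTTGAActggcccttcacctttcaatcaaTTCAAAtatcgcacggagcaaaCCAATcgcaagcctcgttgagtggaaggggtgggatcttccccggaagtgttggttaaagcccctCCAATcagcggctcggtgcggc
TTTGAA was found in 17 of 24 called G2/M genes with a promoter entry (70.8%), against 9.38% of the promoters of tested genes. CDK1, BUB1B, MAD2L1, CENPF, TOP2A and HMMR were among the 17. The share was 19.1% among all genes that fell and 6.69% among all that rose. The motif is rich in A and T, and median transcript GC content was 43.3% for genes that fell and 55.3% for genes that rose. The part of GC content in these shares was not tested. G2/M genes that were not called were not counted separately, so the 70.8% describes G2/M genes and not the response to lactate. CCAAT was found in 19 of the 24 (79.2%), against 37.1% of tested genes. In DNA replication and G1/S genes TTTGAA was in 1 of 14 and CCAAT in 11 of 14 (78.6%).

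DNA replication and G1/S genes were lower as well. Of 37 tested members 0 rose and 16 fell, with a median of -0.29. Of these, PCNA, the sliding clamp, changed by -0.37 ± 0.08, adjusted p = 0.0136, MCM10, which activates the replicative helicase, by -0.55 ± 0.13, CDC6, which loads it, by -0.46 ± 0.10, and POLA1, the primase-bound polymerase, by -0.45 ± 0.10. The count was 25 with the GC trend removed and 27 without DLD1 controls 2 and 3. It was 4 without SW480 control 1, lactate 1 or lactate 2, 5 without SW480 control 3, 8 without DLD1 lactate 1 and 25 without DLD1 control 2. The difference between this list and the G2/M list was not tested.

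Ribosome biogenesis genes fell too. Of 33 tested members 0 rose and 19 fell, with a median of -0.33, and 29 fell with the GC trend removed. NOP56, a core protein of box C/D ribonucleoproteins that methylate ribosomal RNA (chromosome 20, 2652632 to 2658393), was at 168, 129 and 149 CPM in SW480 controls and 83.8, 73.0 and 80.1 CPM with lactate. The DLD1 levels were 194, 199 and 191 CPM in controls and 144, 154 and 162 CPM with lactate. All lactate libraries were below all controls of their line. NOP56 fell by an average of 0.62 ± 0.10 on the log2 scale, adjusted p = 0.00339, with -0.88 in SW480 and -0.37 in DLD1. NOP16, a factor of the large subunit, had -0.58 ± 0.10, RRS1 -0.44 ± 0.08 and DKC1, the pseudouridine synthase, -0.35 ± 0.07. The nucleolar proteins NPM1 and NCL, added after their values were seen, had -0.37 ± 0.08 and -0.40 ± 0.08. The count was 9 without SW480 control 1, lactate 1 or lactate 2, 10 without SW480 control 3 or DLD1 lactate 1, and 11 without DLD1 control 1. The E-box CACGTG, recognised by MYC among others, was in 5 of 16 called members with a promoter entry (31.3%) and in 10.3% of tested promoters.

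The 3 genes that fell at least 2-fold, taken after their values were seen, were expressed at low levels or unevenly. DCAF4L1 had -1.16 ± 0.21, adjusted p = 0.00572. The mitochondrial proline tRNA gene TRNP had -1.49 ± 0.43, with -2.39 in SW480 and -0.43 in DLD1, and was called only without DLD1 control 3 or DLD1 lactate 3 among the fits with a library left out. CPO, a carboxypeptidase of the intestinal brush border, had -1.09 ± 0.28 and was not called without SW480 control 1, lactate 1 or lactate 2 (adjusted p of at most 0.0596). Among genes with at least 5 CPM and no overlap, the falls were smaller. ZNF596, a zinc finger gene, had -0.76 ± 0.17, adjusted p = 0.0131. POP1, a subunit of RNase P and RNase MRP, had -0.72 ± 0.12, adjusted p = 0.00433. FASTKD5, needed to process mitochondrial transcripts, had -0.70 ± 0.11, adjusted p = 0.00265, and FAM111B, a nuclear protease, -0.70 ± 0.16. SFXN2, a mitochondrial carrier, had -0.68 ± 0.17, adjusted p = 0.0233, a p that became 0.0583 when SW480 control 1 was left out, 0.0542 for control 3, 0.0663 for lactate 1 and 0.0701 for lactate 2. RMDN2 had -0.66 ± 0.15 and ZNF587B -0.63 ± 0.11.

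Calls among endoplasmic reticulum folding, TCA cycle and antioxidant genes were falls but for 1 gene, where 5.94% of all tested genes fell. Without DLD1 controls 2 and 3 the rises were 2, 3 and 2 in these lists. Of 23 tested folding genes 0 rose and 6 fell, and 11 fell with the GC trend removed or without DLD1 control 2. DNAJB11, a co-chaperone of BiP, had -0.44 ± 0.07, adjusted p = 0.00265, HSP90B1 (GRP94) -0.49 ± 0.11, the secreted stress factor MANF -0.49 ± 0.11 and the signal peptidase subunit SEC11C -0.45 ± 0.08. Of 23 TCA cycle and glutamine genes 0 rose and 3 fell. The fit with the GC trend removed gave 1 rise and 6 falls, and there were 6 falls without DLD1 control 2 and 8 without both controls. The 3 were IDH3A, a subunit of the NAD-dependent isocitrate dehydrogenase, at -0.47 ± 0.08, the cytosolic IDH1 at -0.36 ± 0.07 and fumarate hydratase FH at -0.29 ± 0.06. Among NRF2 targets and antioxidant genes 1 of 22 rose and 6 fell. The falls were 10 with the GC trend removed, 2 without SW480 control 1, control 3 or any lactate library and 3 without SW480 control 2. Among the falls were thioredoxin TXN at -0.38 ± 0.09 and its reductase TXNRD1 at -0.42 ± 0.09. Of 13 mitochondrially encoded protein genes 0 rose and 5 fell, with a median of -0.55 in SW480 and -0.03 in DLD1. The count was 2 with the GC trend removed and 8 without DLD1 controls 2 and 3. It was 1 without SW480 control 1, control 3 or any SW480 lactate library, 2 without SW480 control 2, DLD1 control 1 or DLD1 lactate 1, and 3 without DLD1 lactate 3. ND3, a subunit of complex I, fell by an average of 0.39 on the log2 scale and lost its call with the GC trend removed (adjusted p = 0.0583).

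Smaller numbers were called in the remaining lists, where the background was 7.00% of genes that rose and 5.94% that fell. Among sterol and fatty acid synthesis genes 2 of 26 rose and 1 fell, and 4 rose with the GC trend removed. INSIG1, the sterol sensor partner, was among the rises at 0.52 ± 0.09. Among p53 targets 4 of 21 rose and 1 fell, with the growth arrest genes GADD45A at 0.65 ± 0.10 and CDKN1A at 0.54 ± 0.11, and 2 rose without any single SW480 library, DLD1 control 1 or DLD1 lactate 1, against 7 without DLD1 controls 2 and 3. Of 29 ATF4 targets and aminoacyl-tRNA synthetases 6 rose and 1 fell. The balance turned with the GC trend removed, where 5 rose and 8 fell, and was 7 and 7 without DLD1 controls 2 and 3 and 6 and 8 with both changes. Among the rises were PPP1R15A, which restores translation after stress, at 0.65 ± 0.10, VLDLR at 0.56 ± 0.09 and TRIB3 at 0.43 ± 0.10, and 3 rose without SW480 control 1, control 3, lactate 1 or lactate 2. Of 18 osmolyte and pH transport genes 5 rose and 0 fell, while 2 fell with the GC trend removed and 3 without DLD1 controls 2 and 3. Among the rises was the glycerol channel AQP3 at 0.89 ± 0.12, adjusted p = 0.00212. The count of rises was 2 without SW480 control 1 or DLD1 lactate 1, and 3 without SW480 control 2, control 3, lactate 1, lactate 2 or DLD1 control 1. IL1A, a proinflammatory cytokine, rose by 0.97 ± 0.18, and NPC1, the lysosomal cholesterol exporter, by 0.71 ± 0.12.

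**Figure D3:**
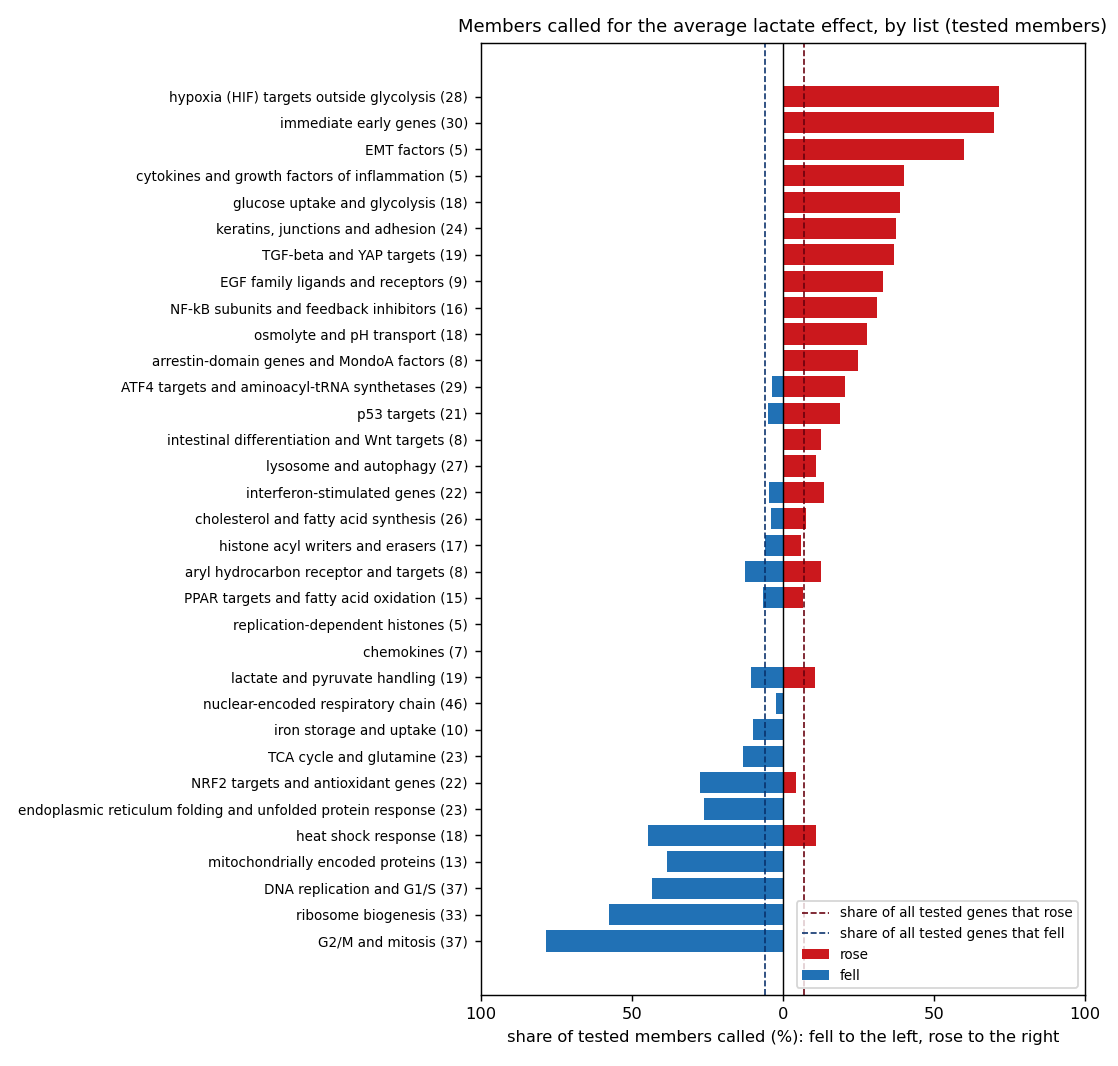
Share of the tested members of each gene list that rose (right) or fell (left) in the average over both lines, in percent, for lists with at least 5 tested members. Dashed lines mark the shares over all 12384 genes, 7.00% and 5.94%; HIF targets and immediate early genes lie far to the right and G2/M genes far to the left.

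How well the average describes each line was read from a fit with 1 mean for each of the 4 groups. Fitted alone, DLD1 gave 1 call, HSPA6. In the joint fit 1893 genes (15.3%) were called in SW480 and 63 (0.509%) in DLD1. Of the 1603 genes called for the average, 1026 were also called in SW480 and 41 in DLD1, and 561 in neither line alone. Their effects had the same sign in both lines for 1599 of 1603, against 57.7% of all genes tested. The model selects for a common sign, so the first count describes the choice of genes. The 4 exceptions, ABCC2, DUSP2, LOC107985497 and MCL1, each lost the call in some fits with a library left out. Libraries did not overlap between lactate and control in both lines, in the same direction, for 1070 genes (8.64%; 4.48% higher and 4.16% lower with lactate), of which 867 were called, and did so in opposite directions for 254 (2.05%). SW480 carried the larger absolute effect for 666 of the 867 genes that rose and 505 of the 736 that fell. Medians were 0.60 in SW480 and 0.37 in DLD1 for rises, and -0.41 and -0.31 for falls. Across all tested genes the log2 fold changes of the 2 lines had a Pearson r of 0.26, of 0.29 with the GC trend removed and of 0.30 without both DLD1 controls. Genes are not independent replicates.

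**Figure D4:**
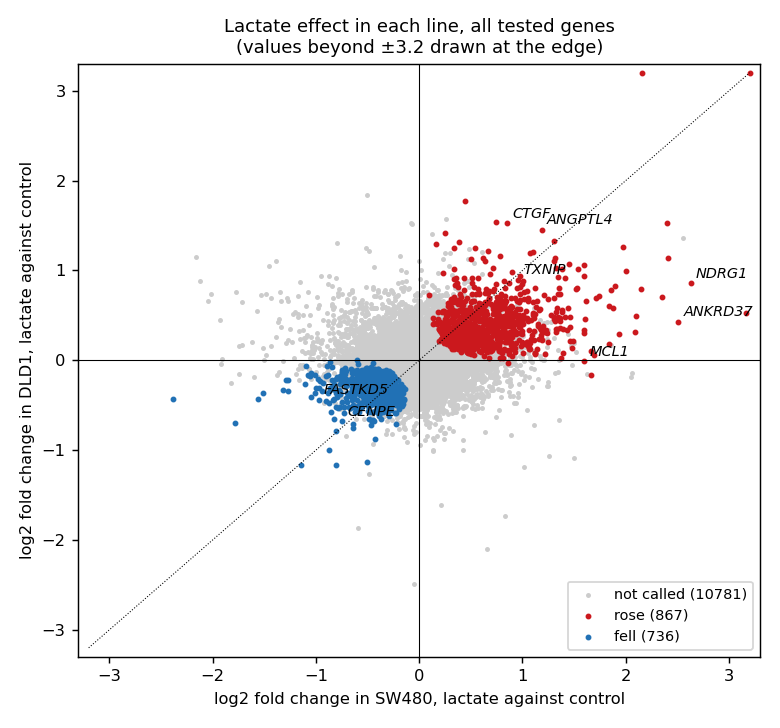
Log2 fold change with lactate in SW480 (horizontal axis) and DLD1 (vertical axis) for 12384 genes, with values beyond 3.2 drawn at the edge. Red points are the 867 genes that rose on average, blue points the 736 that fell and grey points the 10781 not called. Called genes lie almost wholly in the quadrants of equal sign, which the average selects, and HSPA6 lies at the upper right corner.

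The genes that rose were richer in GC than those that fell, with a median transcript GC content of 55.3% against 43.3%, where all tested genes had 48.1%. The average fold change had a Spearman rho with GC content of 0.43 across genes. The rho was 0.02 in SW480 and 0.71 in DLD1, the line of controls 2 and 3. Median transcript length was 4126 bases for genes that rose, 2804 for genes that fell and 3371 for all tested. The part of GC content in single calls was not tested beyond the fit with the trend removed.

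A difference of the effects between lines (DLD1 minus SW480) was called for 158 genes (1.28%). Leaving out SW480 control 1, control 3, lactate 2 or lactate 3 gave 14, 22, 13 and 55 such calls. Leaving out DLD1 controls 1 to 3 gave 60, 671 and 1933, and DLD1 lactate 1 to 3 gave 36, 48 and 8. Of these 48 were also called for the average, 38 as rises and 10 as falls, and all 48 had the larger effect in SW480. The other 110 were not called for the average, and 102 of them had opposite signs in the 2 lines. The chemokine list lay among these, with 0 of 7 members called for the average by edgeR (2 at an unadjusted p under 0.05), DESeq2 or limma-voom, and 6 called for the difference. CCL20, which draws lymphocytes through CCR6, was at 24.8, 37.3 and 23.1 CPM in SW480 controls and 68.1, 88.1 and 79.4 CPM with lactate. DLD1 had 82.6, 91.3 and 63.8 CPM in controls and 36.2, 42.2 and 35.3 CPM with lactate, so that lactate libraries were all higher in SW480 and all lower in DLD1. Its difference was -2.59 ± 0.26 (SE), adjusted p = 0.00118, while its average was 0.19 ± 0.39, adjusted p = 0.792. CXCL8, the neutrophil chemokine interleukin 8, had 1.02 in SW480 and -1.19 in DLD1, a difference of -2.21 ± 0.32 (adjusted p = 0.0113) that was lost without DLD1 lactate 3 (0.0512). CXCL3 had 0.64 and -0.80, and CXCL1 0.14 and -0.89, and both differences held in all 12 fits with a library left out. These 4 chemokines were chosen after their values were seen.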

How the data were processed

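The deposited table holds raw read counts per gene symbol, 1 column for each of the 12 libraries, with no normalization by the authors per the file headers. Alignment used HISAT2 with GRCh38 per the submitters' processing notes. No tool version, counter, annotation or strand setting is given in the sources used here, so overlapping and antisense genes cannot be separated. All columns matched a library by title. Of 54261 symbols 45971 matched RefSeq directly and 1854 through an older name. The other 6436 held 0.609% of counts and were kept.

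Counts were fitted in R 4.3.3 with edgeR 4.0.16 (TMM scaling, robust quasi-likelihood, two-sided test, Benjamini-Hochberg adjustment over 12384 genes) with terms for line and treatment, and calls were made at an adjusted p under 0.05. Standard errors were derived from the fold change and the F statistic. A fit with 4 group means gave the effect in each line and their difference. CPM are counts scaled to the library total. GC and length trends were removed by natural splines with 5 degrees of freedom, fitted on genes whose mean log2 CPM reached 1, and used as offsets, which takes out a lactate effect along GC content too. A GC value existed for 94.9% of tested genes. Alternatives were other scalings and filters, DESeq2 1.42.0, voom of limma 3.58.1, a replicate block, each line alone and each library left out.

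Members, tests and 38 gene lists were chosen with earlier results of these data known. Named genes were up to 15 rises and 10 falls with the largest changes, no overlap in either line and at least 5 CPM, from each list at most 4 called members by smallest p, up to 8 genes called for the average and the difference, and 10 genes whatever their p. Some genes that this rule names are not reported here. On simulated data over 12306 genes the average test recovered 77.6% of 67 genes changed 1.5-fold and 95.5% of 67 changed 2-fold, and the test of the difference 13.4% and 50.7%. The simulation gave every library the same spread at a given level and no GC trend. DLD1 controls 2 and 3 differed in both, so recovery in the real data may be lower.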

Additional observations from a re-analysis of the deposited data

Results flagged for a closer look

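For 17 of the named genes the average over the lines hides a difference in response, by a test of the difference itself (DLD1 minus SW480, edgeR's quasi-likelihood test with Benjamini-Hochberg adjustment, called at an adjusted p under 0.05). In each of them the effect was larger in SW480. Up to 8 of the named genes were chosen because both the average and this difference were called. The count of 17 therefore follows in part from the choice.

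Among genes that rose on average, the difference was -1.77 for NDRG1, -2.08 for ANKRD37 and -0.997 for HK2, all hypoxia or glycolysis genes. It was -1.56 for PHLDA1 and -1.61 for MCL1 among immediate early genes, and -1.04 for IRAK2, a kinase of interleukin 1 signalling. The scaffold gene AKAP12 had -1.62, the antisense RNA JHDM1D-AS1 -1.31, the unnamed locus LOC107985497 -1.83, and the endodermal transcription factor gene GATA6 -1.35. SOX9, a factor of intestinal crypts, had -0.72, NPC1 -0.72 and COL1A1 -0.93. SW480 and DLD1 effects were 1.67 and 0.11 for PHLDA1, 1.60 and -0.01 for MCL1, and 1.69 and 0.06 for AKAP12.

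Among genes that fell on average, the difference was 0.99 for ZNF596 and 1.05 for SFXN2. For the mitochondrially encoded ND1 and COX3 it was 0.63 and 0.85. COX3 had -0.86 in SW480 and -0.02 in DLD1.

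The average calls of NDRG1, ZNF596, NPC1, COL1A1 and HK2 held in all 12 fits that left out a library. The other average calls did not. ANKRD37 kept its call in 11 of these fits, SFXN2 in 8, and IRAK2, ND1 and PHLDA1 in 7 each, with an adjusted p of at most 0.0527, 0.0701, 0.0834, 0.0764 and 0.0811. AKAP12 was called in 6 (at most 0.0918), and JHDM1D-AS1 and LOC107985497 in 5 each (0.103 and 0.121). SOX9, MCL1 and GATA6 kept theirs in 4 each (0.0850, 0.127 and 0.109), and COX3 in 3 (0.128). With the GC trend removed SOX9 (adjusted p = 0.0608) and GATA6 (0.226) were not called for the average either.

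Of these 17 differences, 17 remained called with the GC trend removed and 16 without DLD1 controls 2 and 3, where COL1A1 was lost (adjusted p = 0.0946). Single libraries mattered more. With SW480 control 1 left out 5 were still called, with control 2 left out 15 and with control 3 left out 8. For SW480 lactate 1, 2 and 3 the numbers were 13, 3 and 10. For DLD1 control 1 the number was 11, for controls 2 and 3 it was 17 each, for lactate 1 and lactate 2 it was 9 each, and for lactate 3 it was 2. PHLDA1 and MCL1 were the genes called in all 12 of these fits, with an adjusted p of at most 0.0226 and 0.0240.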

How the results depend on the processing

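Calls for the average numbered 1572 with median-of-ratios scaling, 1607 with upper quartile scaling, 2315 with DESeq2 and 1672 with limma-voom, and 1600 and 1541 of the 1603 genes were called in the same direction by the last 2. They numbered 3293 (1438 rises, 1855 falls) with the GC trend removed, 3394 (1758, 1636) without both DLD1 controls 2 and 3, and 4035 (1833, 2202) with both changes, a setting added after seeing the data. SW480 alone gave 4714 (2506, 2208) and DLD1 alone 1 (1, 0). Leaving out 1 library gave 621 to 2831 calls, 357 to 1486 rises and 264 to 1345 falls. Calls for the difference numbered 837 with no filter, 718 with DESeq2, 1575 with the GC trend removed, 801 without both DLD1 controls and 1138 with both changes, and 8 to 1933 with 1 library left out. With DLD1 alone ABCC2 (0.0036), MCL1 (-0.015) and LOC107985497 (-0.17) had the opposite sign to their average. The cause was not tested.

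Control and lactate libraries of the same replicate number had deviations with r of 0.07, 0.08 and 0.14 in SW480 and -0.19, 0.18 and 0.28 in DLD1. Since 3 of the 6 values did not exceed 0.1, the numbers were not taken as pairs. In 4 of 6 cases a control correlated best with the lactate library of its own number. With replicate number as a block there were 1161 calls (721 rises, 440 falls), or 2237 (960, 1277) with the GC trend removed as well, and 254 or 1379 for the difference. A simulated 2-fold change was recovered for 95.5% of genes in the average and for 50.7% in the difference. The simulation held no library with the wider spread or GC trend of DLD1 controls 2 and 3. These shares may therefore overstate recovery in the real data.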

Other observations

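Genes of NF-kB signalling rose in part, and more so in SW480. Of 16 tested subunits and feedback inhibitors 5 rose and 0 fell, where 7.00% of all tested genes rose. The median log2 fold change was 0.28 against -0.01 over all genes, with 0.50 in SW480 and 0.09 in DLD1. Effects were above 0 for 16 members in SW480 and 10 in DLD1. A difference between lines was called for 3 members. Lactate libraries lay above all controls in both lines for 0 members. The subunit gene RELA had 0.46 ± 0.13, the inhibitor TNIP2 0.53 ± 0.14 and the adaptor TRAF1 0.48 ± 0.14, where ± is the SE. TRAF1 was not called with the GC trend removed (adjusted p = 0.147). These calls rest on few libraries: 0 were made without SW480 control 1, control 2, control 3, lactate 1 or lactate 2, 1 without DLD1 lactate 1, 3 without SW480 lactate 3, DLD1 control 1, lactate 2 or lactate 3, and 9 without DLD1 control 3 or without both DLD1 controls 2 and 3.

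Among 22 interferon-stimulated genes 3 rose and 1 fell, where 7.00% of all tested genes rose and 5.94% fell. With the GC trend removed 3 rose and 3 fell, and 0 rose without SW480 control 1 and 1 without control 3. IFIT5, which binds viral RNA, fell by 0.45 on the log2 scale (SE 0.11) and kept its call without each single library. Lipid droplet coat gene PLIN2 rose by 0.65 ± 0.13 and the fatty acid oxidation enzyme gene ACADM had -0.40 ± 0.08, and both kept their calls in the same way. Endothelial markers summed to at most 0.878 CPM in SW480 and 4.46 CPM in DLD1, and erythroid markers to at most 0.521 CPM in any library.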
